A study of Mus musculus with 8 samples.

Results

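The genes described here encode the axoneme of motile cilia, the microtubule scaffold that makes a cilium beat, together with 3 transcription factors of the motile cilia programme. They were found by gene name on the array: axonemal dynein chains, radial spoke, tektin, central pair, docking and assembly proteins, and Foxj1, Rfx2 and Rfx3. The rule took 81 probes of 47 genes, out of 35440 genes named on the array, and 44 of the 47 genes were well above background on at least 2 of the 8 arrays. Rsph6a, Tekt3 and Spag17-ps were not and were left out of every comparison. The genes were chosen by name and by no measured value, but the set was proposed after passage and knockdown differences on these arrays had been seen, so those differences are given as a description of these arrays.

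The cells were neural stem and progenitor cells grown as neurospheres from mouse embryonic stem cells of the EB3 line, by way of embryoid bodies formed with Noggin. All cultures were infected with a lentivirus when the embryoid bodies were dissociated, and grew in FGF2 at 20 ng/ml. Tertiary neurospheres (P2) were compared with primary neurospheres (P0). At each passage 4 viruses were used: Nr2f1/2 shRNA, control shRNA (aimed at firefly luciferase), miR-17 and control miRNA (aimed at lacZ). Each of the 8 combinations has 1 array, and nothing in the labels tells separate cultures from repeats of one. The p-values for passage set the mean passage difference against its spread among the 4 viruses. That spread holds any virus effect that differed between passages, as well as variation between arrays, which may be technical. It does not measure the spread between replicate cultures. All arrays lay on 1 slide, the shRNA arrays in column 1 and the miRNA arrays in column 2, per the file headers, so vector system and slide column cannot be told apart.

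A motile axoneme has outer doublet microtubules that carry outer and inner dynein arms, the motors of the beat, and a central pair of microtubules that radial spokes connect to the doublets. In the brain, motile cilia are carried by ependymal and choroid plexus cells, and Foxj1 is the transcription factor that switches on many of the genes for them. Factors of the RFX family, among them Rfx2 and Rfx3, bind a promoter element called the X-box and act with Foxj1. Levels below are log2 intensities relative to the 75th percentile of the same array, so 0 is the 75th percentile and each unit is a doubling. Levels of different genes come from different probes and are not set against each other. In cultures of mixed cells a lower level can come from fewer cells of a type or from less RNA per cell, and these cannot be told apart here.

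Between 57.9% and 67.9% of the non-control spots were well above background on each array, and none of them was saturated. The targeted genes were lower with the Nr2f1/2 shRNA than with the control shRNA, Nr2f1 by 55.6% at P2 and 42.2% at P0, and Nr2f2 by 46.4% and 29.6%. Against the control miRNA this did not hold throughout. Nr2f2 was lower on the control miRNA array than on the Nr2f1/2 shRNA array at P2 (1.36 against 1.66) and P0 (2.21 against 2.82), as was Nr2f1 at P0 (5.07 against 5.37). Between the 2 controls (control miRNA minus control shRNA, log2), Nr2f1 differed by 0.77 at P2 and -1.08 at P0 and Nr2f2 by -1.20 and -1.11, so the controls lay further apart than the knockdown arrays for Nr2f2 at both passages and for Nr2f1 at P0, but not for Nr2f1 at P2.

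More axoneme genes were higher in P2 than in P0 neurospheres than were lower, and the calls fell on Foxj1, inner dynein arm chains and the nexin link. In limma's moderated test across 27086 genes, with vector condition as a block, 5 of the 44 genes rose (Benjamini-Hochberg adjusted p under 0.05, background 2.55% of all genes) and 0 fell (background 2.25%). The 5 were Foxj1, Dnali1, Ccdc65, Dnahc7b and Dnahc7c. At an unadjusted p under 0.05 in limma, 26 of the 44 were higher (13.9% of all genes) and 3 lower (26.0% of all genes). Of the 44, 6 (Ccdc108, Dnahc7c, Dnahc10, Dnahc12, Spag16 and Tekt5) were represented by a probe that was well above background on P2 arrays only, so they passed the filter through P2 and their higher P2 value is not a result. Among the other 38, a choice made after the values were seen, 4 rose (2.21% of all genes above background at both passages) and 0 fell (2.03%), so of the 5 calls Dnahc7c is the one lost. The median passage difference of the 38 was 1.13 on the log2 scale, against -0.20 for all genes above background at both passages, and 27 of the 38 were positive, against 39.2%. All 4 P2 arrays lay above all 4 P0 arrays for 17 of the 38 (8.99%) and below them for 2 (15.3%), namely Dnahc14 and Rsph3a. Over all 44 the non-overlapping counts were 18 above (9.24% of all genes) and 2 below (15.2%).

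**Figure D1:**
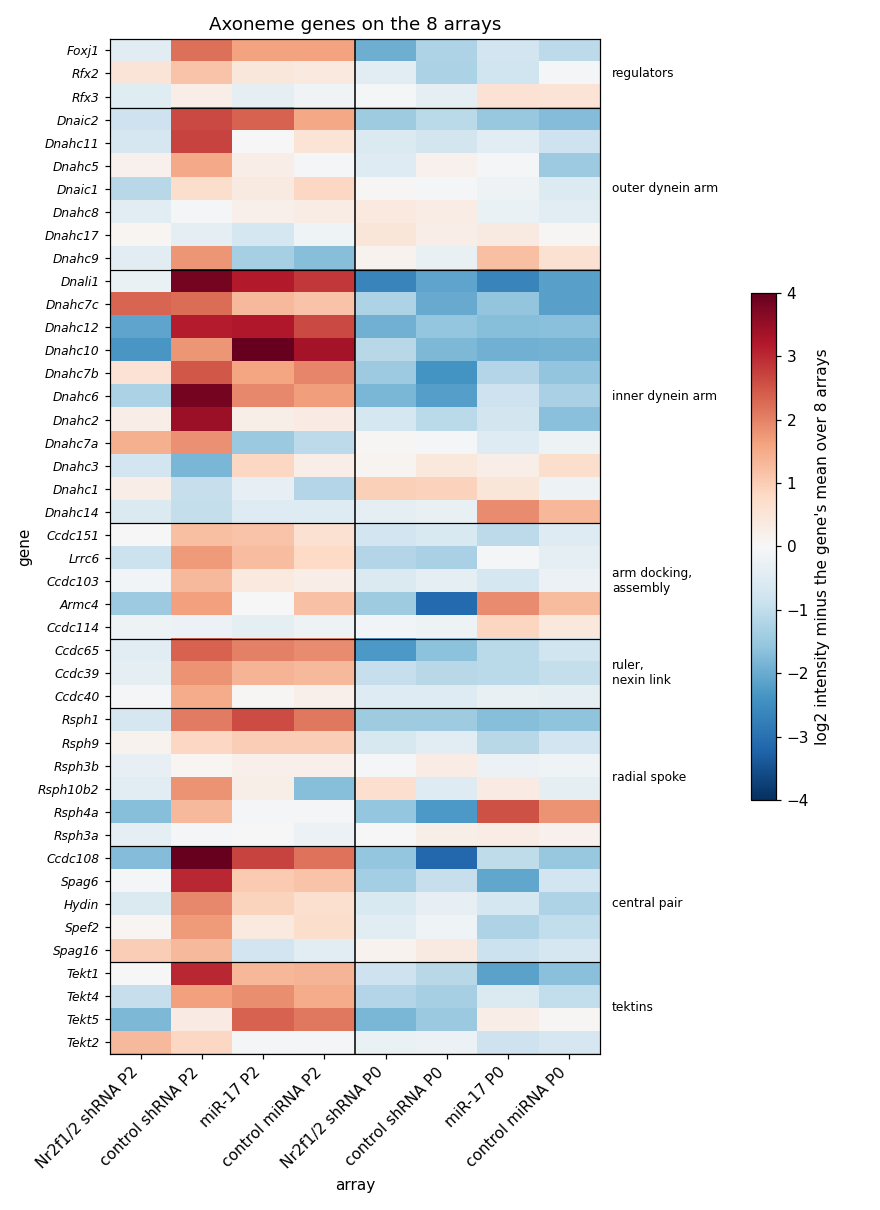
Log2 intensity of the 44 genes (rows, by structural class) on the 8 arrays (columns, P2 left of P0), as the difference from each gene's mean over the 8 arrays. The P2 columns are red for most genes, except in the column of the Nr2f1/2 shRNA, where many rows are pale or blue.

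Foxj1, the regulator of the motile cilia programme, was at 0.54, 3.16, 2.55 and 2.57 on the P2 arrays of the Nr2f1/2 shRNA, control shRNA, miR-17 and control miRNA, against -1.02, -0.30, 0.19 and -0.11 on the P0 arrays in the same order. Every P2 array lay above every P0 array, and the Nr2f1/2 shRNA had the lowest value at both passages. The difference was 2.52 ± 0.34 (standard error of the limma fit), 5.72-fold, with an adjusted p of 0.037. Rfx2 differed by 1.26 ± 0.36, with an adjusted p of 0.075, and ranged from -2.63 to -1.88 at P2 against -4.28 to -3.07 at P0, so the groups did not overlap. Rfx3 differed by -0.35 ± 0.31 and did not pass the test, and its 3 probes disagreed, with differences between -0.35 and 0.79.

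Of the 11 inner dynein arm genes, 3 rose (2.55% of all genes). Among the 8 that were above background at both passages, 2 rose (2.21% of all such genes) and 5 had a positive passage difference (39.2%). Their median was 1.24. Dnali1, the inner arm light intermediate chain, was at -2.48, 1.61, 0.98 and 0.63 at P2 (the viruses in the order above), against -4.84, -4.31, -4.85 and -4.38 at P0, where 2 of 4 arrays were well above background. It was higher on every P2 array, by 4.78 ± 0.65 (27.5-fold, adjusted p 0.037 in limma). Dnahc7b, a heavy chain, was at -1.33, 0.59, -0.31 and 0.05 at P2, against -3.36, -4.29, -3.08 and -3.47 at P0, a difference of 3.30 ± 0.49 (adjusted p 0.041 in limma), and its other kept probes gave 1.73 and 1.96. Dnahc7c was not well above background on any P0 array and was at least 3.73-fold higher at P2, with an adjusted p of 0.030 in limma, but it was kept only through its P2 arrays. Dnahc7a, Dnahc7b and Dnahc7c are closely related copies, and 1 of the Dnahc7b probes lies at the Dnahc7a locus (chr1:53634105-53634164, mouse build mm9), so which copy gave these signals is uncertain. Dnahc6 was at -2.91, 2.17, 0.25 and 0.02 at P2, against -3.49, -3.86, -2.50 and -2.96 at P0. Its difference of 3.08 ± 0.87 did not pass the test (adjusted p 0.075 in limma), and its Nr2f1/2 shRNA array at P2 lay within the P0 range. Dnahc10 and Dnahc12 were not well above background on any P0 array and were at least 2.91-fold and 2.34-fold higher at P2, where 3 of 4 arrays measured them, also without passing the test.

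Some heavy chains were lower at P2. Dnahc14 differed by -1.28 ± 0.42, Dnahc1 -1.08 ± 0.26, Dnahc9 -0.83 ± 0.82, Dnahc3 -0.76 ± 0.47 and Dnahc17 -0.59 ± 0.22, with adjusted p between 0.063 and 0.475 in limma. None of the 5 passed the test. Dnahc9 and Dnahc17 are outer arm heavy chains and the other 3 belong to the inner arm.

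The 7 outer dynein arm genes had a median difference of 0.39, and 0 rose (2.55% of all genes). Dnaic2, an intermediate chain that holds the outer arm together, was at -3.32, 0.15, -0.14 and -0.95 at P2, against -3.93, -3.59, -4.01 and -4.22 at P0, a difference of 2.87 ± 0.60 with an adjusted p of 0.056. The other intermediate chain, Dnaic1, differed by 0.39 ± 0.45. The heavy chains Dnahc11 and Dnahc5 differed by 1.28 ± 0.62 and 0.94 ± 0.25, and Dnahc8 by -0.00057 ± 0.32. The 5 docking, attachment and assembly genes tie the arms to the doublets or assemble them in the cytoplasm. Ccdc151 differed by 1.47 ± 0.30, Lrrc6 by 1.44 ± 0.46, Ccdc103 by 0.93 ± 0.27, Armc4 by 0.70 ± 1.09 and Ccdc114 by -0.50 ± 0.27. None of these 5 passed the test (2.55% of all genes rose and 2.25% fell).

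Ccdc65, a subunit of the nexin-dynein regulatory complex that links neighbouring doublets, was at -1.08, 1.70, 1.35 and 1.23 at P2, against -2.96, -2.29, -1.74 and -1.44 at P0. It was higher on every P2 array, by 2.91 ± 0.37 (7.50-fold, adjusted p 0.036 in limma), and its other kept probes gave 0.73 and 1.26. Ccdc39 and Ccdc40, which form the ruler that spaces arms and spokes along the doublet, differed by 2.02 ± 0.43 and 0.85 ± 0.34. Their adjusted p values were 0.057 and 0.131.

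Radial spoke genes split. Rsph1, a spoke head protein, was at -1.29, 1.46, 1.99 and 1.49 at P2, against -2.06, -2.04, -2.35 and -2.22 at P0, a difference of 3.08 ± 0.62 with an adjusted p of 0.055. Rsph9, also of the spoke head, differed by 1.47 ± 0.27 with an adjusted p of 0.051. The stalk genes Rsph3a and Rsph3b differed by -0.34 ± 0.17 and 0.08 ± 0.22, and their probes list accessions of both copies, so the 2 cannot be separated with certainty. Rsph4a, also of the spoke head, was at -2.85, 0.15, -1.21 and -1.23 at P2, against -2.71, -3.46, 1.38 and 0.64 at P0. At P0 its miRNA arrays lay above its shRNA arrays, and its other probe gave a positive passage difference of 2.28.

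None of the 5 central pair genes kept was called (2.55% of all genes rose and 2.25% fell). Ccdc108, now named Cfap65, has 2 probes that disagreed. The brighter one was at -5.38, 0.41, -0.93 and -1.47 at P2 and was not well above background on any P0 array. The other was well above background on 3 of the 4 P0 arrays and differed by -0.54, so no passage direction is given for the gene. Spag6 differed by 2.57 ± 0.48, Hydin by 1.44 ± 0.41 and Spef2 by 1.42 ± 0.29. Spag16 was not well above background on any P0 array, and its P2 level was too low to give a bound. The 4 tektin genes kept encode filament proteins inside the doublet wall. Of these 4, 3 were above background at both passages, and all 3 had positive differences (39.2% of all such genes). Tekt1 was at -0.13, 2.87, 1.20 and 1.23 at P2, against -0.96, -1.25, -2.27 and -1.81 at P0, with every P2 array above every P0 array. Tekt1 differed by 2.87 ± 0.57, Tekt4 by 2.03 ± 0.49, and Tekt2 had an adjusted p of 0.061 in limma, while Tekt5, not well above background on any P0 array and measured on 3 of 4 P2 arrays, was at least 1.34-fold higher.

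**Figure D2:**
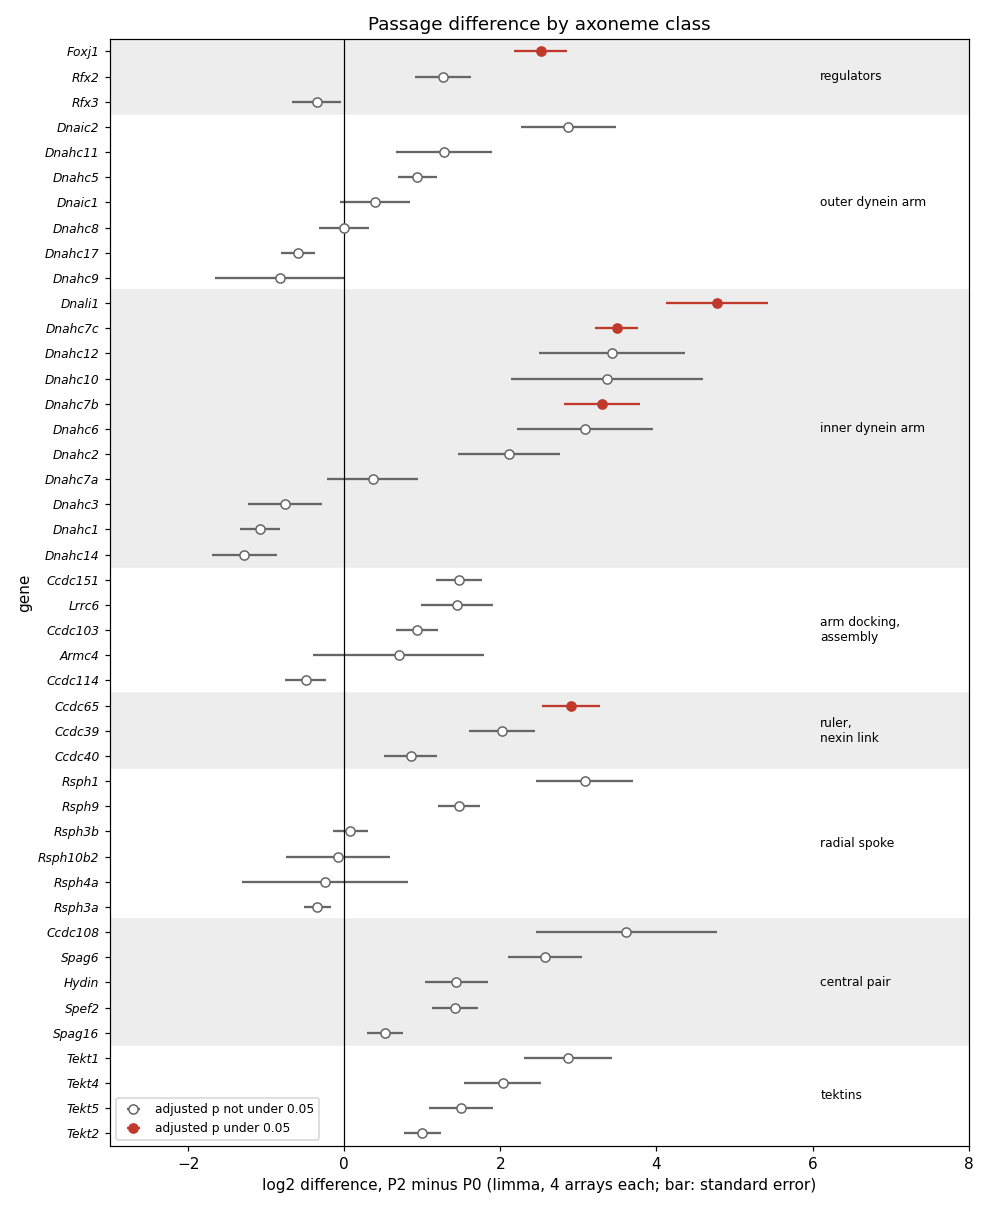
Passage difference (P2 minus P0, log2, horizontal axis) of the 44 genes by class, as the limma estimate with its standard error over 4 arrays at each passage. Filled red points mark the 5 genes called, and the inner arm class spans -1.28 to 4.78. The points of Ccdc108, Dnahc7c, Dnahc10, Dnahc12, Spag16 and Tekt5 rest on P0 values not well above background.

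The calls for passage depended on which arrays were used. Because condition is a block, leaving out 1 array also takes the other array of its condition out of the passage estimate. The runs are therefore 1 check for each condition, with fewer residual degrees of freedom, and not a check of each array. Leaving out either array of the control shRNA, miR-17 or control miRNA condition left 0 of the 44 genes called, and 0 of all genes, while leaving out either Nr2f1/2 shRNA array gave 20 of the 44 higher (7.97% of all genes) and 0 lower (9.49%). That fit called 4731 of all genes, against 1301 with all 8 arrays, so calls rose across the array and not in the axoneme genes alone. Within each condition, as a difference of 2 arrays counted at 2-fold, the number of axoneme genes higher at P2 was 8 of 41 with the Nr2f1/2 shRNA (background 5.21%), 32 of 44 with the control shRNA (11.6%), 23 of 43 with miR-17 (14.5%) and 24 of 42 with the control miRNA (15.3%). The medians were 0.46, 2.05, 1.24 and 1.28 in the same order. These counts and medians, and the 20 of 44, include genes kept only through their P2 arrays, whose higher P2 value is not a result. With the Nr2f1/2 shRNA, the genes higher by the most were Dnahc7c (at least 2.64), Dnali1 (at least 2.36) and Dnahc7b (2.03), and Foxj1 was higher by 1.56. Of these, Dnahc7c was kept only through its P2 arrays.

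**Figure D3:**
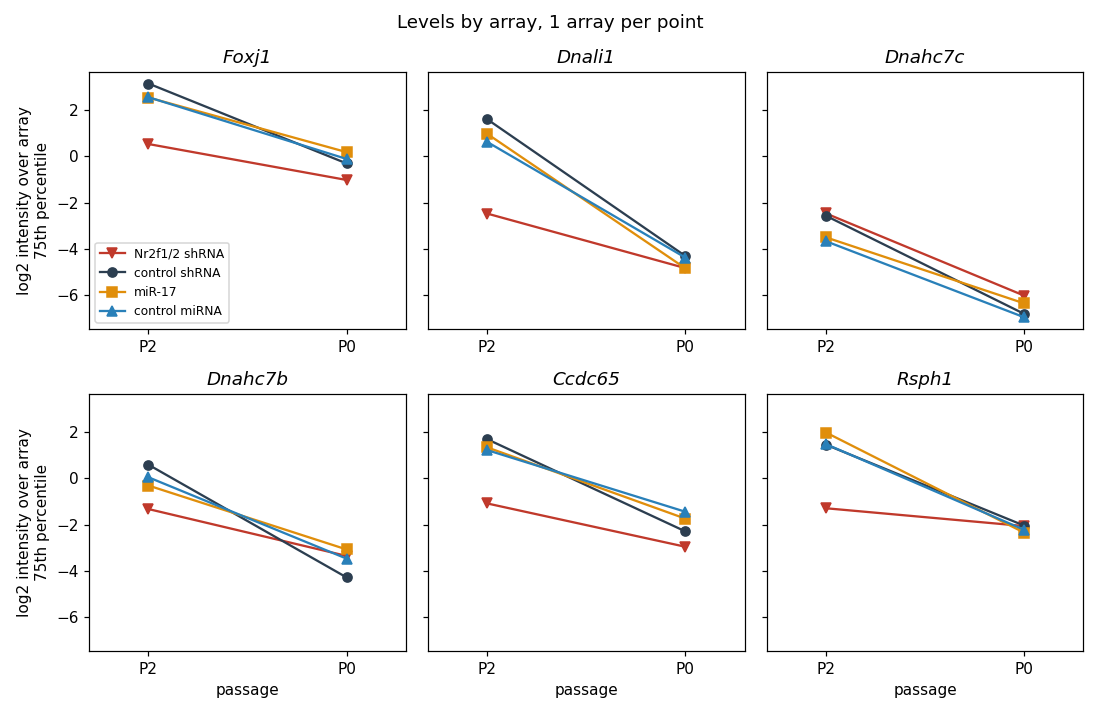
Level of the 5 called genes and Rsph1 on each array (log2 intensity relative to the array's 75th percentile), P2 left of P0, with a line joining the 2 arrays of a virus. The Nr2f1/2 shRNA point is the lowest of the P2 arrays in 5 of the 6 panels, the exception being Dnahc7c.

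At P2 the Nr2f1/2 shRNA array had less axoneme transcript than the control shRNA array. Of 43 genes that could be compared, 28 were at least 2-fold lower (background 9.27% of all genes) and 1, Dnahc1, was at least 2-fold higher (background 7.42%). The median difference was -1.92 on the log2 scale, against 0.07 for all genes. There is 1 array on each side, so no test exists for these values. Dnahc6 was 33.8-fold lower. Ccdc108 was 55.4-fold lower by its brighter probe, while its other probe differed by 0.22 on the log2 scale, so the probes disagree. Dnali1 differed by -4.09 on the log2 scale. Dnaic2 was 11.1-fold lower, Dnahc11 10.5-fold, Dnahc2 8.93-fold, Armc4, an outer arm docking protein, 8.63-fold and Spag6 8.29-fold. Dnahc12 was at least 11.1-fold lower and Dnahc10 at least 5.39-fold. Both were well above background only on P2 arrays of the other viruses, so their lower value follows from the filter and is not a result. Both count among the 28.

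The lower values covered every class, where 9.27% of all genes were at least 2-fold lower. Dnahc10 and Dnahc12, kept only through P2 arrays of the other viruses, are among the inner arm genes counted. At least 2-fold lower were 5 of 7 outer arm genes, 6 of 10 inner arm genes, 4 of 5 docking and assembly genes, 3 of 3 ruler and nexin link genes, 3 of 6 radial spoke genes, 4 of 5 central pair genes, 2 of 4 tektin genes and 1 of 3 regulators. Foxj1 was 6.15-fold lower, while Rfx2 and Rfx3 were 1.54-fold and 1.67-fold lower. Genes within 2-fold included Rsph9 (1.61-fold lower) and the stalk genes Rsph3a and Rsph3b, which were 1.27-fold and 1.32-fold lower.

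At P0 the same pair of viruses differed little. Of 36 genes that could be compared, 0 were at least 2-fold apart (2.38% of all genes), and the median was 0.02. Foxj1 was -0.72 on the log2 scale at P0. In limma, 0 of the 44 genes were called for the knockdown over both passages (0% of all genes), with 4 lower at an unadjusted p under 0.05 out of 237 lower genes in all. For the interaction of knockdown and passage, with 1 residual degree of freedom, 0 were called in limma (0% of all genes), and 11 were lower at an unadjusted p under 0.05 out of 625 lower genes in all.

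The 2 control cultures at P2 were themselves apart. The control miRNA array was at least 2-fold lower than the control shRNA array for 18 of 44 genes (11.5% of all genes) and at least 2-fold higher for 2 (9.89%), with a median of -0.67. The genes furthest apart were Dnahc9 (-3.46 on the log2 scale), Dnahc2 (8.63-fold lower), Dnahc7a (7.19-fold lower) and Dnahc6 (4.44-fold lower), and Tekt5 and Dnahc10 were 3.45-fold and 2.96-fold higher. The control shRNA array was the highest of the 4 P2 arrays for 27 of 44 genes (16.1% of all genes), and the Nr2f1/2 shRNA array was the lowest for 30 of 44 (32.8% of all genes). These comparisons and the knockdown comparison share the control shRNA array. Set against the control miRNA array instead, a comparison chosen after the values were seen, the Nr2f1/2 shRNA array at P2 was at least 2-fold lower for 22 of 44 genes (17.1% of all genes) and at least 2-fold higher for 5 (15.6%), with a median of -0.94. Dnahc10, Dnahc12 and Tekt5, kept only through P2 arrays of the other viruses, count among the 22 and the 30 because of the filter. In this comparison Nr2f2 itself was not lower with the Nr2f1/2 shRNA (1.66 against 1.36), while Nr2f1 was (3.73 against 5.67). Against the control miRNA array Foxj1 differed by -2.03, Dnali1 by -3.10 and Rsph1 by -2.78, while Dnahc2 differed by -0.05 and Dnahc9 by 1.27. At P0 the 2 controls were at least 2-fold apart for 6 of 36 genes (17.3% of all genes), with Rsph4a 4.10 higher and Armc4 at least 2.64 higher on the log2 scale with the control miRNA.

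miR-17 arrays lay close to their control miRNA arrays. At P2, 1 of 43 genes was at least 2-fold apart (2.44% of all genes), Armc4, which was 2.21-fold lower with miR-17. At P0, 1 of 38 was (4.46% of all genes), Spag6, at -1.32 on the log2 scale. In limma 0 of the 44 genes were called for miR-17 over both passages (0% of all genes), and 0 had an unadjusted p under 0.05.

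**Figure D4:**
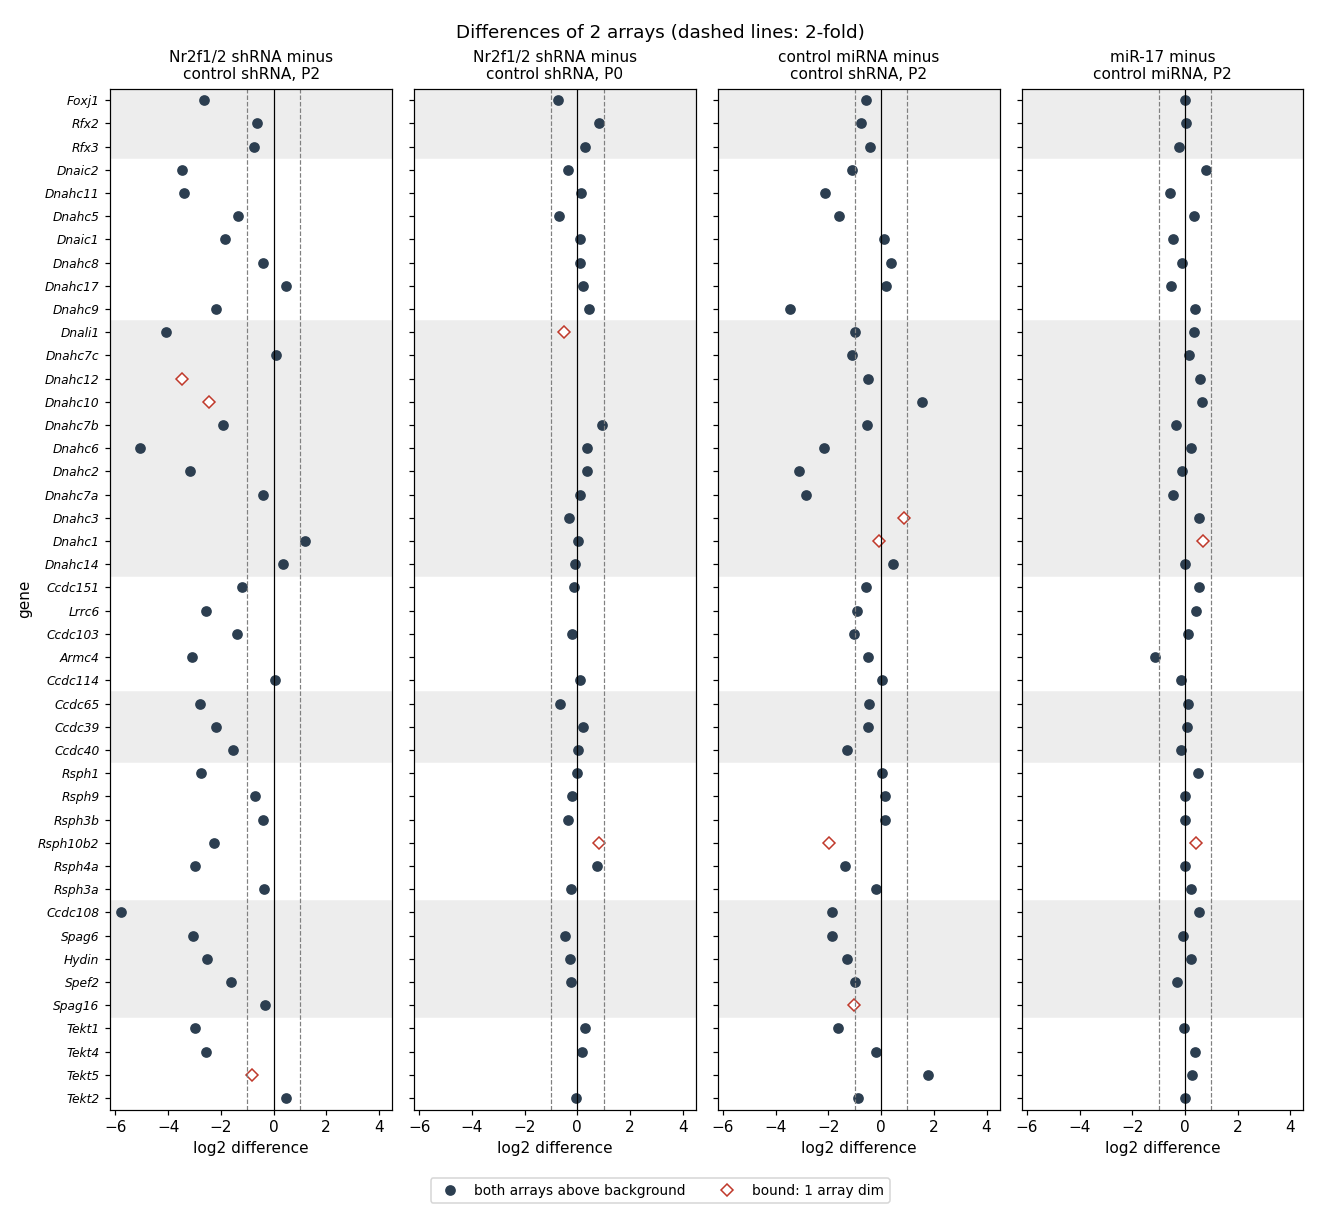
Differences of 2 arrays on the log2 scale (horizontal axes) for each gene, in 4 panels: Nr2f1/2 shRNA minus control shRNA at P2 and at P0, control miRNA minus control shRNA at P2, and miR-17 minus control miRNA at P2. Open diamonds are bounds with 1 array dim, dashed lines mark 2-fold, and most genes left of -1 are in the P2 knockdown panel (28 genes) and the panel of the 2 controls (18 genes), with 0 in the P0 knockdown panel.

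Other cilium genes were read from lists. Of all genes, 2.55% rose and 2.25% fell, and 9.27% were at least 2-fold lower and 7.42% higher with the Nr2f1/2 shRNA at P2. Of 43 other motile cilium genes tested, 4 rose, namely Nme5, Drc1, Enkur and Dydc2, the last kept only through its P2 arrays. Of the 38 that were above background at both passages, 33 had a positive passage difference (39.2% of all such genes), with a median of 1.19. Of these 43, 31 were at least 2-fold lower with the Nr2f1/2 shRNA at P2, among them Meig1 (34.5-fold), Dynlrb2 (32.3-fold) and Enkur (13.1-fold). Only 38 of the 43 were well above background on an Nr2f1/2 shRNA array. The rest were kept through arrays of the other viruses, so a lower value of theirs follows from the filter and is not a result. The 36 intraflagellar transport and BBSome genes, which build most cilia including immotile ones, had a passage median of 0.38, and 1, Bbs9, rose by 1.34 ± 0.22 (adjusted p 0.044 in limma). Of these 36, 2 were at least 2-fold lower and 1 higher with the Nr2f1/2 shRNA at P2. Of 12 cytoplasmic dynein and dynactin genes, 0 passed the test in limma, and 2 were at least 2-fold lower with the Nr2f1/2 shRNA at P2. In the list for the multiciliated cell programme, 1 of 13 genes rose, Rfx4, by 1.91 ± 0.35 (adjusted p 0.050 in limma), and Mcidas and Ccno differed by -0.67 and 1.63. Of its 11 genes above background at both passages, 5 had a positive passage difference, with a median of -0.04. With the Nr2f1/2 shRNA at P2, 2 of 10 were at least 2-fold lower and 2 higher, with a median of -0.12. Against the control miRNA array (chosen after the values were seen), 9 of 13 were at least 2-fold lower (17.1% of all genes). In that comparison 0 were higher (15.6%) and the median was -1.77. Only 10 of the 13 were well above background on an Nr2f1/2 shRNA array, so lower values of the rest follow from the filter. Between the 2 controls at P2, 8 of 13 were at least 2-fold higher with the control miRNA (9.89%) and 0 lower (11.5%).

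Markers of other cells also differed, and not all in the direction of the axoneme genes. Of all genes, 2.55% rose and 2.25% fell, and 9.27% were at least 2-fold lower and 7.42% higher with the Nr2f1/2 shRNA at P2. Of 7 ependymal markers besides Foxj1, 3 rose, Fam183b, Mia and S100b (the last above background at P2 only). With the Nr2f1/2 shRNA at P2, 5 of the 7 were at least 2-fold lower. Only 6 of the 7 were well above background on an Nr2f1/2 shRNA array, so a lower value of the other follows from the filter. The summed ependymal level, in units of the array's 75th percentile, was 31.9 with the Nr2f1/2 shRNA and between 54.1 and 62.4 on the other P2 arrays, against 26.9 to 34.1 at P0. Of 8 astrocyte markers, 4 rose (Aldoc, Slc1a3, Gjb6 and S100b, the last also an ependymal marker), and 7 were at least 2-fold lower with the Nr2f1/2 shRNA at P2. Their summed level was at most 18.4 at P0. At P2 it was 59.9 with the Nr2f1/2 shRNA, 140 with the control shRNA, 349 with the control miRNA and 355 with miR-17. Between the 2 controls at P2, 5 of the 8 were at least 2-fold higher with the control miRNA (9.89% of all genes) and 0 lower (11.5%). Their median was 1.86 in that comparison, against -0.67 for the axoneme genes. Of 12 markers of dividing cells, 1 fell, Cenpf, and all 12 were at least 2-fold higher with the Nr2f1/2 shRNA at P2, where their summed level was 92.8, against 17.8 with the control shRNA. It was 6.69 and 7.13 on the miR-17 and control miRNA P2 arrays, against 94.7 to 138 on the P0 arrays. The part of these cells in the axoneme differences was not tested.

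Few markers of other ciliated cells passed the test. Of 7 choroid plexus markers, 1 rose (Aqp1, against 2.55% of all genes), and Ttr differed by -2.68 without passing the test. With the Nr2f1/2 shRNA at P2, 4 of the 7 were at least 2-fold higher (7.42% of all genes) and 2 lower (9.27%) than with the control shRNA. Their summed level was 66.0, against 29.9. In limma 0 of 6 floor plate, 5 node and 7 spermatid and germ cell markers passed the test. Between the 2 controls at P2, 4 of 6 floor plate and 3 of 5 node markers were at least 2-fold lower with the control miRNA (11.5% of all genes). In both lists 0 were higher (9.89%). Foxa2 and Shh are in both lists. Summed floor plate levels at P2 were 37.3 and 47.6 on the shRNA arrays, against 8.94 and 10.2 on the miRNA arrays. They were 35.0 to 53.1 at P0. Summed node levels at P2 were 10.2 and 13.6 on the shRNA arrays, against 2.05 and 2.99 on the miRNA arrays. The summed choroid plexus level was 29.9 to 66.0 at P2, against 44.1 to 67.4 at P0, and the summed spermatid and germ cell level was 0.574 to 0.804 at P2, against 0.825 to 1.02 at P0, and Odf1, Acrv1 and Dazl were left out by the filter.

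The promoters of the axoneme genes were read for the X-box, since RFX factors bind it. A promoter of 300 bases (250 before and 50 after the start, RefSeq, GRCm38.p6) was at hand for 38 of the 47 genes. An X-box on either strand stood in 9 of the 38, against 1.75% of 27025 genes with a promoter, and the half-site GTTGCC, which can be part of an X-box, in 15 of 38, against 14.1%. The forkhead motif TGTTTAC stood in 2 of 38, against 4.05%. The 6 genes with an X-box before the start are shown to let the shared element be compared, as 60 bases 5' to 3' on the gene's strand with the X-box in capitals.
Dnaic2, chr11:114727359-114727418, plus strand: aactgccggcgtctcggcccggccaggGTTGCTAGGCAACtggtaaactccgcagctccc
Hydin, chr8:110266917-110266976, plus strand: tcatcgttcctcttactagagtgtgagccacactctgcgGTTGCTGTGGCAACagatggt
Dnaic1, chr4:41569734-41569793, plus strand: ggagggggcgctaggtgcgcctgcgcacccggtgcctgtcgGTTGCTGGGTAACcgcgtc
Ccdc151, chr9:22002769-22002828, minus strand: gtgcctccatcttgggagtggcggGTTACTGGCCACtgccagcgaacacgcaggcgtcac
Spag16, chr1:69826843-69826902, plus strand: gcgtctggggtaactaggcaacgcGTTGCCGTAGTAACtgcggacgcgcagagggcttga
Tekt2, chr4:126325682-126325741, minus strand: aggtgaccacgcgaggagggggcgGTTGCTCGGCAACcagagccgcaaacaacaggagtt
Counted from the transcription start, the X-box began at position -33 in Dnaic2, -21 in Hydin, -19 in Dnaic1, -170 in Ccdc151, -103 in Spag16 and -71 in Tekt2 (-29 from its other annotated start). In Ccdc103 it spanned the start, and in Rsph3b and Spef2 it lay after it. The 9 genes with an X-box had passage differences from 0.08 to 2.87, against -1.28 to 4.78 for the 26 other genes with a promoter and a value. Spag16 among the 9, and Dnahc10, Dnahc12 and Tekt5 among the 26, were well above background on P2 arrays only. At P2, 6 of the 9 and 15 of the 26 were at least 2-fold lower with the Nr2f1/2 shRNA, against 9.27% of all genes. Dnahc10 and Dnahc12 count among the 15 because of the filter. A match is a description of these letters, and binding was not measured.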

How the data were processed

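Single-colour Agilent mouse arrays (62976 spots) were hybridised with Cy3-labelled cRNA. Per the file headers, Feature Extraction 10.7.3.1 gave each spot a detrended, background-subtracted intensity; these deposited intensities were the main values. The deposited value table holds a signal that equals the intensity divided by 1 constant per array (481 to 949); its scale was found by comparison with the scanner values and it was used as an alternative.

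Intensities were put on a log2 scale, minus the array's 75th percentile over non-control spots. Outlier-flagged spots were left out, a probe was kept if 2 or more arrays flagged it as well above background, and the brightest kept probe stood for a gene. limma 3.58.1 (R 4.3.3) fitted condition and passage across 27086 genes, with 3 residual and 2.209 prior degrees of freedom, and Benjamini-Hochberg adjustment at 0.05. Steps were tested on simulated data. For 2 arrays, differences were counted at 2-fold; where 1 array was dim, the higher of its own value and the lowest clearly detected signal of that array was used, which gives a bound, and genes dim on both were not compared. The number of arrays limits the precision; probes printed 10 times had a median CV of 5.96% to 6.55%.

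Named genes are the regulators, the genes called, the largest differences per class and per comparison, and the largest of each list. The members and lists were chosen with earlier results of these data known. For 5 of 17 genes with several kept probes, probes disagreed in sign: Rfx3, Ccdc114, Rsph10b2, Ccdc108 and Rsph4a. Alternatives tried were normexp background correction (offset 50), quantile normalization, other filters, the mean of probes, the deposited table and leaving out arrays. Promoters came from RefSeq; motifs were searched with Python 3.11.15.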

Additional observations from a re-analysis of the deposited data

Results flagged for a closer look

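Among 88 sets of 4 arrays (44 genes at each passage), 9 had 1 array far from the other 3 by Dixon's criterion, 8 of them at P2, and chance flags about 1 in 20 sets. The Nr2f1/2 shRNA array was far below the others for Ccdc65 (-1.08, nearest 1.23), Dnahc12 (-7.56, nearest -2.81), Rsph1 (-1.29, nearest 1.46) and Tekt4 (-1.54, nearest 0.84). The control shRNA array was far above the others for Dnahc2 (3.59, nearest 0.48), Ccdc40 (1.07, nearest -0.22) and Rfx2 (-1.88, nearest -2.50), and below them for Dnahc14 (-3.22, nearest -2.85). At P0 the Nr2f1/2 shRNA array was above the others for Dnahc10 (-6.21, nearest -6.89), where none of the 4 arrays was well above background. The Nr2f1/2 shRNA value of Dnahc12 is not well above background either.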

How the results depend on the processing

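The passage test pairs the 2 arrays of each vector condition through its block; the labels give no replicate numbers for any other pairing. The count of genes called for passage (5 of 44) was 15 with normexp background correction, 9 with quantile normalization, 13 of 31 with the filter at all 8 arrays, 14 without the condition block, 20 without both Nr2f1/2 shRNA arrays, 4 of 38 for genes above background at both passages (chosen after seeing the data) and 0 with the control conditions only. Leaving out 1 array gave 0 to 20, and through the block this is 1 check for each condition. The counts out of 44 include genes kept only through their P2 arrays. All genes called for passage came to 1301, against 7006 with normexp, 3665 with the stricter filter and 3901 without the block. With quantile normalization 928 of all genes were called higher and 463 lower. Of the calls, 53.1% were higher, against 30.7% with normexp and 66.7% with quantile normalization. The median passage difference of the genes stayed positive in all settings; within single conditions it was 0.46 for the Nr2f1/2 shRNA and 2.05 for the control shRNA, and leaving out 1 array gave 0.95 to 1.70. The knockdown median at P2 was -0.94 against the control miRNA array, a setting chosen after seeing the data, as were the single conditions. miR-17 at P2 gave 0 genes at least 2-fold apart with normexp and with the stricter filter, and at P0 0 with normexp, 0 with the mean of probes and 2 with quantile normalization. The 2 controls gave 13 of 31 at P2 with the stricter filter, and at P0 3 with normexp and 3 of 31 with the stricter filter. Shares over all genes were not counted for these miR-17 and control settings, so the counts have no background to be read against. The knockdown and miR-17 tests over both passages and the interaction called 0 axoneme genes in every setting run. The interaction could not be refitted after leaving out an array. The passage difference turned sign with normexp for Armc4 (-0.013), Rsph10b2 (0.28) and Spag16 (-0.084); with quantile normalization for Dnahc8 (0.22) and Rsph10b2 (0.43); with the mean of probes for Ccdc114 (0.060), Rfx3 (0.28), Rsph10b2 (0.85) and Rsph4a (1.01); with the deposited table for Dnahc8 (0.010); with the controls only for Dnahc8 (0.19), Rsph10b2 (0.48) and Rsph4a (0.87); and without both Nr2f1/2 shRNA arrays for Dnahc8 (0.28) and Rsph10b2 (0.28). Leaving out 1 array at a time, 6 genes turned sign, with ranges of -0.66 to 1.54 for Armc4, -0.14 to 0.80 for Dnahc7a, -0.24 to 0.28 for Dnahc8, -0.88 to 0.35 for Rsph10b2, -0.047 to 0.20 for Rsph3b and -1.53 to 0.53 for Rsph4a. The median of all genes was -0.21, -0.23 with normexp and -0.022 with quantile normalization, and relative to it the axoneme genes' median was 1.55, 0.99 and 1.57. The cause was not tested.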
